A study of Felis catus with 15 samples.

Results

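Interferon-stimulated and antigen presentation genes were followed by RNA-seq in corpus tissue of the cat (Felis catus). The corpus lies midway along the epididymis, the coiled duct in which sperm mature. The genes were a list of 42 symbols, and 39 of them were found in the deposited table of 38995 genes. MX2, XAF1 and TAPBP matched no symbol and were not analysed here. All 39 passed the filter on low counts, as did 18038 genes in all. The list was drawn up by gene function, with earlier results of these libraries known.

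The 15 libraries fall into 3 groups of 5: corpus explants cultured with extracellular vesicles from the caput, which lies upstream, corpus explants cultured without them and fresh corpus tissue. Explants are pieces of tissue kept alive in a dish, and extracellular vesicles are membrane-bound particles that cells release. The labels carry the short codes D3 for both cultures and D0 for fresh tissue, which are not spelled out. The age and breed of the cats, the vesicle dose and the culture medium are not given either. The question was what caput vesicles do to the transcripts of corpus explants, with fresh tissue as a further control. Libraries are named by group and replicate number as vesicle culture 1 to 5, culture 1 to 5 and fresh tissue 1 to 5. Whether the replicates of a group came from separate animals is not given, so p-values measure only the spread between these libraries, which may be technical.

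Interferons are secreted proteins that bind receptors on the cell surface and act through the JAK kinases and STAT transcription factors. The genes this switches on include proteins that cut, bind or block viral RNA, the sensors of that RNA, and the transcription factors that carry the signal on. Another branch serves antigen presentation, in which peptides are cut by the immunoproteasome, pumped by the TAP transporter and shown to T cells on MHC class I, while MHC class II and its chaperone CD74 serve professional antigen-presenting cells. In the epididymis, the epithelium and resident macrophages are both known for innate defence of a duct that holds foreign-looking sperm.

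Total counts were 17308832 to 27420218 in vesicle culture, 19308190 to 25454399 in culture and 17751507 to 24841100 in fresh tissue. Culture 3 stood apart, with 0.179% of its counts on the 13 mitochondrial genes against 6.23% to 7.48% in the other cultures. Markers of principal cells, the main absorbing and secreting cells of the duct, summed to 2488 to 4050 CPM in vesicle culture, 1821 to 3635 CPM in culture and 29103 to 39002 CPM in fresh tissue, where CPM is a read count scaled to a common library size. All 14 tested markers of this type were lower in both cultures than in fresh tissue, while 14 of 15 tested basal cell markers were higher in both. In bulk tissue, more cells of a type and more RNA per cell cannot be told apart, and this touches every comparison below.

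Of the 39 genes, 18 were higher and 0 lower in culture than in fresh tissue, at an adjusted p under 0.05 by edgeR's quasi-likelihood test with Benjamini-Hochberg adjustment over 18038 genes. Over all genes tested, 28.7% were called higher and 25.6% lower. The median log2 fold change was 0.96 over the 39 genes and 0.04 over all genes tested, and 34 of the 39 were above 0. Culture 5 carried a share of this: without it, 11 of the 39 were called higher and 1 lower, PARP9 at -0.94 (edgeR adjusted p = 0.019). Of all 18038 genes, 9312 were called in either direction without culture 5, against 9786 with it. How many of the 9312 were higher was not counted, so the 11 have no like share beside them. Whether the 39 genes differed from all genes, with or without culture 5, was not tested. In culture with vesicles, 13 of the 39 were higher and 0 lower than in fresh tissue, against 27.4% higher and 25.5% lower over all genes tested. The median was 0.74 over the 39 genes and 0.01 over all genes. With the replicate number as a block, which fits each same-numbered set together, 19 of the 39 were higher and 0 lower in vesicle culture. Of all genes, 10283 were then called in either direction, against 9549 without the block, and the higher part was not counted. Both comparisons share the 5 fresh libraries, so they are not independent, and their values are given side by side.

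**Figure D1:**
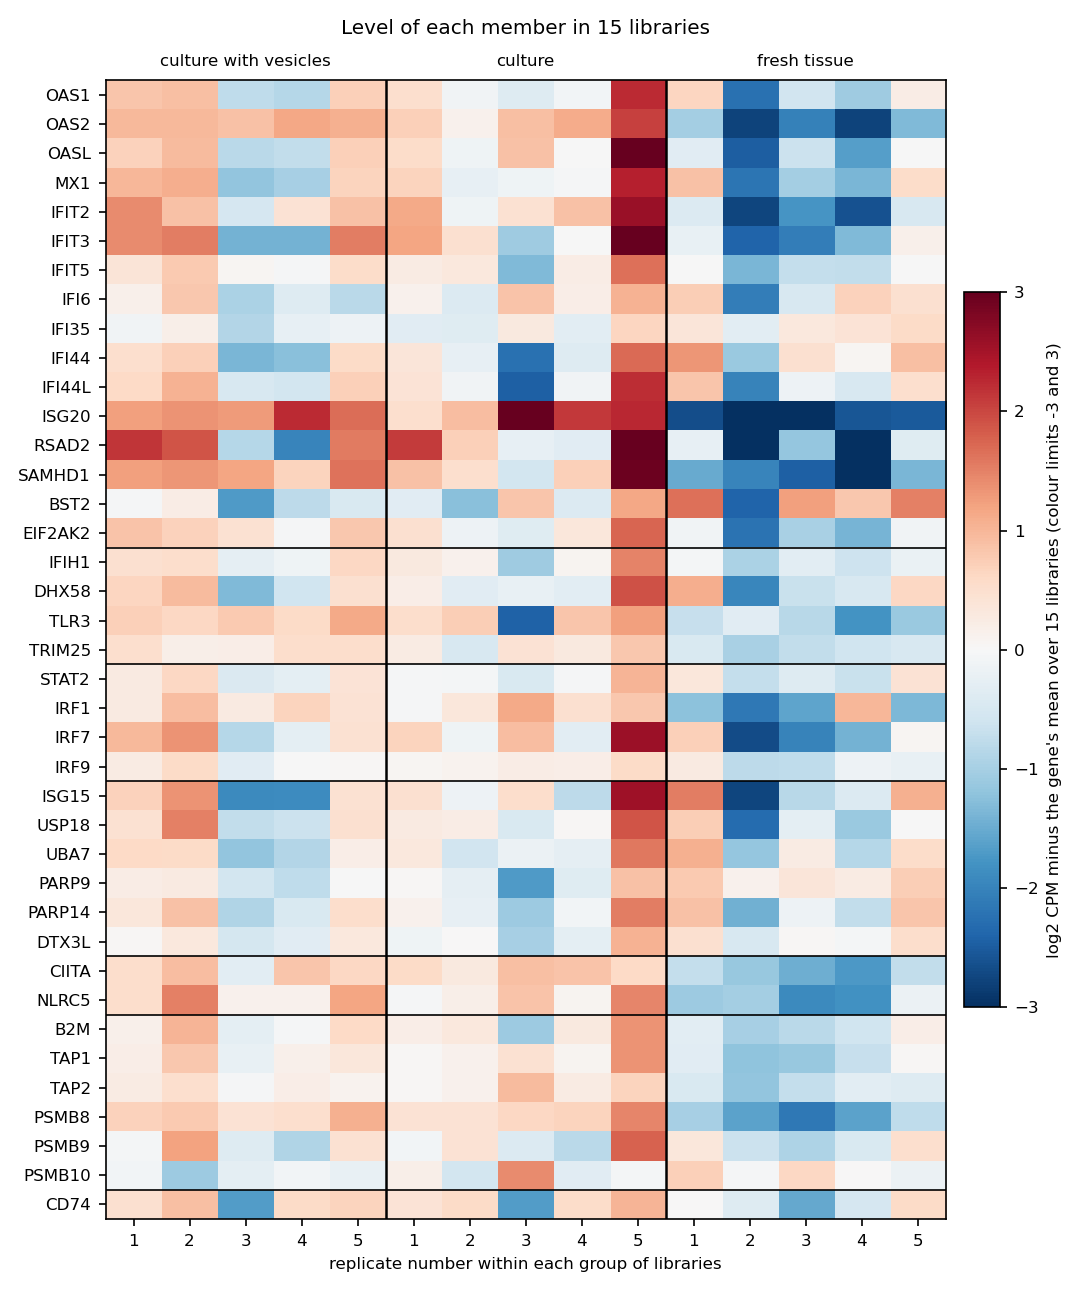
Colour map of the 39 genes (rows, grouped by role with lines between roles) in the 15 libraries (columns: vesicle culture, culture, fresh tissue, each in replicate order). Colour is log2 CPM minus the gene's mean over 15 libraries, red above and blue below it; culture 5 is the reddest column and fresh tissue 2 the bluest.

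The antiviral effectors are proteins that act on viruses directly. Of the 16 tested, 9 were higher in culture than in fresh tissue (median log2 fold change 1.24) and 6 in vesicle culture (median 0.99), with 0 lower in each. ISG20, an exonuclease that degrades single-stranded RNA, had 36.5, 39.6, 37.4, 73.6 and 49.8 CPM in vesicle cultures 1 to 5, 21.9, 29.5, 145, 67.5 and 74.6 CPM in cultures 1 to 5, and 2.37, 0.602, 0.528, 2.54 and 2.63 CPM in fresh tissues 1 to 5. Every cultured library was far above every fresh one, and fresh tissues 2 and 3 were lowest. Fresh levels were low, at 2.63 CPM or less, and ISG20 overlaps the gene LOC123385802 in the annotation. The log2 fold change of ISG20 over fresh tissue was 4.79 ± 0.58 (SE) in vesicle culture and 5.3 ± 0.6 in culture (edgeR adjusted p = 7.13e-06 and 3.24e-06), the largest of the 39 genes in each.

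OAS2 makes the oligoadenylates that switch on RNase L. It had 122, 122, 115, 138 and 129 CPM in vesicle cultures 1 to 5, 102, 68, 116, 134 and 256 CPM in cultures 1 to 5, and 30.3, 9.03, 15.1, 9 and 24.6 CPM in fresh tissues 1 to 5. The vesicle cultures were close together and every cultured library lay above every fresh one, with culture 5 highest. OAS2 rose by a log2 fold change of 2.83 ± 0.38 in vesicle culture and 2.94 ± 0.38 in culture (edgeR adjusted p = 1.81e-05 and 1.29e-05).

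SAMHD1, a hydrolase that depletes the nucleotides reverse transcription needs, had 54.4, 57.9, 52.2, 36.7 and 72 CPM in vesicle cultures 1 to 5, 42.5, 32.5, 15.8, 37.9 and 178 CPM in cultures 1 to 5, and 7.99, 5.74, 4.14, 2.42 and 8.92 CPM in fresh tissues 1 to 5. No cultured library overlapped fresh tissue, and culture 5 was highest by far. SAMHD1 rose by 3.22 ± 0.56 in vesicle culture and 3.39 ± 0.57 in culture on the log2 scale (edgeR adjusted p = 0.000202 and 0.000133). Without culture 5, culture against fresh tissue gave 2.44 for SAMHD1 (edgeR adjusted p = 5.97e-05). The annotation places SAMHD1 over part of another gene, TLDC2, and whether the counting used strand is not given.

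IFIT2, which binds viral RNA that lacks the host cap marks, had 30.6, 21.1, 7.97, 15.3 and 21 CPM in vesicle cultures 1 to 5, 25.2, 10.5, 15.8, 21.1 and 69 CPM in cultures 1 to 5, and 8.65, 1.61, 3.3, 1.79 and 8.19 CPM in fresh tissues 1 to 5. All cultures lay above fresh tissue, while vesicle culture 3 lay below fresh tissues 1 and 5. IFIT2 was higher by 2.03 ± 0.58 in vesicle culture and 2.59 ± 0.59 in culture (edgeR adjusted p = 0.00797 and 0.00165), and by 1.94 in culture without culture 5 (edgeR adjusted p = 0.00565).

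OASL, an OAS relative that acts on the RNA sensor RIG-I, had 14.5, 17.1, 5.06, 5.27 and 14.7 CPM in vesicle cultures 1 to 5, 13.1, 8.18, 16.4, 8.88 and 71.6 CPM in cultures 1 to 5, and 7.02, 1.53, 5.68, 2.77 and 8.86 CPM in fresh tissues 1 to 5. Culture 5 stood far above the rest, and both cultures overlapped fresh tissue. OASL was called higher in culture, at 2.19 ± 0.65 (edgeR adjusted p = 0.00972), but not without culture 5, where it was at 1.17 (edgeR adjusted p = 0.0595). In vesicle culture it was at 1.13 ± 0.63 and not called (edgeR adjusted p = 0.146). With the block, OASL passed in vesicle culture at 1.26 (edgeR adjusted p = 0.0455).

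RSAD2 encodes viperin, an enzyme that makes a chain-terminating nucleotide. It had 58.3, 48.8, 7.2, 3.27 and 38.6 CPM in vesicle cultures 1 to 5, 56.6, 21.7, 11, 10.4 and 203 CPM in cultures 1 to 5, and 11, 1.49, 5.85, 0.693 and 10.1 CPM in fresh tissues 1 to 5. Vesicle cultures 3 and 4 lay below fresh tissue 1, culture 4 lay just below it, and culture 5 was the highest of all. RSAD2 was higher by 2.42 ± 0.98 in vesicle culture and 3.37 ± 1.02 in culture (edgeR adjusted p = 0.049 and 0.0109). Neither call was firm. The first was lost in 12 of 18 alternatives, among them limma-voom (2.26, adjusted p = 0.151). Leaving out vesicle culture 1, 2 or 5, or fresh tissue 2, 3, 4 or 5, also ended it (log2 fold change 2.04 to 2.71). Leaving out culture 5 ended the second (2.08, edgeR adjusted p = 0.0589).

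The other called effectors were EIF2AK2, IFIT3 and IFIT5. EIF2AK2, the kinase PKR that halts translation on double-stranded RNA, was at 1.36 ± 0.43 in vesicle culture and 1.38 ± 0.43 in culture, and both passed (edgeR adjusted p = 0.0152 and 0.0134), the second not without culture 5 (0.87, edgeR adjusted p = 0.0594). IFIT3 passed in culture at 2.61 ± 0.89 (edgeR adjusted p = 0.021), but not without culture 5 (1.19, edgeR adjusted p = 0.169), and in vesicle culture only with the block (1.53, edgeR adjusted p = 0.027, against 1.72 and 0.105 without it). IFIT5 passed narrowly in culture at 1.0 ± 0.41 (edgeR adjusted p = 0.0492) and lost the call in 12 of 18 alternatives, down to 0.47 without culture 5 (edgeR adjusted p = 0.245). With the block, IFIT5 passed in vesicle culture at 0.91 (edgeR adjusted p = 0.0357).

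The remaining effectors were not called in either comparison. MX1, the GTPase that traps viral ribonucleoproteins, had 214, 226, 47.2, 53.7 and 170.4 CPM in vesicle cultures 1 to 5, 169, 90.2, 97.5, 104 and 535 CPM in cultures 1 to 5, and 196, 23.4, 52.9, 41.2 and 158 CPM in fresh tissues 1 to 5. The 3 groups overlapped widely, fresh tissue 1 was above culture 1 and culture 5 was highest, and its log2 fold change of 0.59 ± 0.66 in vesicle culture and 1.08 ± 0.66 in culture did not pass (edgeR adjusted p = 0.473 and 0.181). OAS1 was at 0.66 and 1.1 in the same order, IFI44L at 0.39 and 0.66, IFI6 at -0.25 and 0.29, IFI35 at -0.51 and -0.25, and IFI44 at -0.44 and -0.19. BST2, or tetherin, which holds budding virions at the cell surface, had 57.3, 68.9, 17.9, 33.9 and 42.5 CPM in vesicle cultures 1 to 5, 46.4, 24.4, 105, 43.9 and 131 CPM in cultures 1 to 5, and 184, 11, 137, 102 and 168 CPM in fresh tissues 1 to 5. Fresh tissue 2 was the lowest of all 15 libraries, the other fresh tissues were above every vesicle culture, and cultures 3 and 5 overlapped them. BST2 was at -1.45 ± 0.59 in vesicle culture (edgeR adjusted p = 0.0516) and -0.78 ± 0.59 in culture (edgeR adjusted p = 0.277). Without fresh tissue 2, BST2 was called lower in vesicle culture at -1.74 (edgeR adjusted p = 0.00548), and without vesicle culture 2 at -1.69 (edgeR adjusted p = 0.0449).

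**Figure D2:**
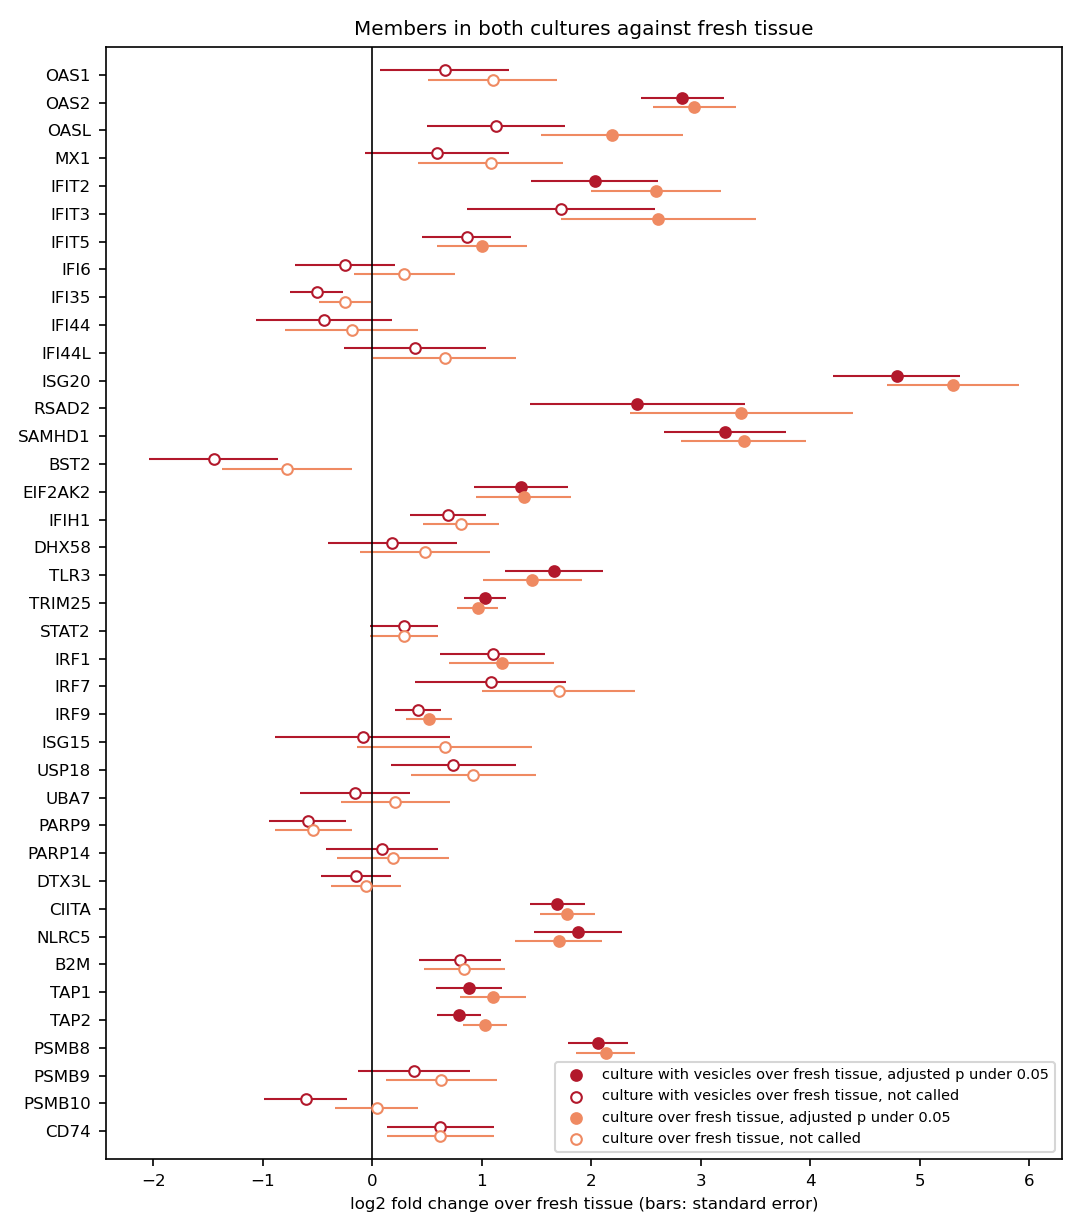
Log2 fold change over fresh tissue of the 39 genes, with vesicle culture (dark red) drawn above culture (orange) for each gene; points are the fitted values, bars the standard error, and filled points passed an adjusted p under 0.05. ISG20 lies furthest to the right, at 4.79 and 5.30, and no filled point lies below 0.

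Among the 4 sensors, 2 were higher in each culture than in fresh tissue and 0 lower. TRIM25, the ubiquitin ligase that activates RIG-I, had 60.8, 48.7, 49.2, 62.2 and 62.1 CPM in vesicle cultures 1 to 5, 51.2, 31.1, 58.6, 53 and 75.3 CPM in cultures 1 to 5, and 31.3, 22, 25.8, 28.5 and 31.1 CPM in fresh tissues 1 to 5. Every vesicle culture lay above fresh tissue, and culture 2 lay just under fresh tissue 1. TRIM25 rose by 1.03 ± 0.19 in vesicle culture and 0.96 ± 0.19 in culture on the log2 scale (edgeR adjusted p = 0.000326 and 0.000577). TLR3, the endosomal receptor for double-stranded RNA, had 16.3, 15.3, 17.1, 14.8 and 21.9 CPM in vesicle cultures 1 to 5, 14.4, 16.6, 1.76, 17.8 and 23.5 CPM in cultures 1 to 5, and 6.14, 7.83, 5.55, 2.77 and 4.54 CPM in fresh tissues 1 to 5. Culture 3 alone was below all fresh libraries, and the other 9 cultured libraries were above them. TLR3 was higher by 1.66 ± 0.45 in vesicle culture and 1.46 ± 0.45 in culture (edgeR adjusted p = 0.00596 and 0.0125). TLR3 overlaps the gene FAM149A in the annotation. The cytosolic RNA sensors IFIH1 (MDA5), at 0.69 ± 0.35 in vesicle culture and 0.81 ± 0.35 in culture, and DHX58 (LGP2), at 0.18 ± 0.59 and 0.48 ± 0.59 in that order, did not pass. For IFIH1 the edgeR adjusted p was 0.115 and 0.0659. IFIH1 passed in culture by limma-voom (0.83, adjusted p = 0.0228) and without culture 3 (1.02, edgeR adjusted p = 0.00972). In vesicle culture it passed with only the 2 groups compared (0.67, edgeR adjusted p = 0.0191).

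The transcription factors gave 2 calls of 4 in culture, both loose, and 0 in vesicle culture. IRF1, which binds interferon response elements without needing STATs, had 63.3, 99.4, 62.8, 83.1 and 70.1 CPM in vesicle cultures 1 to 5, 51, 66.5, 116, 73.4 and 91.7 CPM in cultures 1 to 5, and 22.1, 11.8, 17.4, 105 and 20.5 CPM in fresh tissues 1 to 5. Fresh tissue 4 lay among the cultures and the other fresh tissues far below all of them. IRF1 was at 1.1 ± 0.48 in vesicle culture and 1.18 ± 0.48 in culture (edgeR adjusted p = 0.0631 and 0.0484), and the second call was lost in 12 of 18 alternatives. Without fresh tissue 4 alone, IRF1 was at 2.08 in vesicle culture and 2.15 in culture (edgeR adjusted p = 1.4e-05 and 1.09e-05). With the block, IRF1 passed in vesicle culture at 1.47 (edgeR adjusted p = 0.0149). IRF9, the DNA-binding part of the complex ISGF3, was at 0.42 ± 0.21 in vesicle culture and 0.52 ± 0.21 in culture, and its call in culture (edgeR adjusted p = 0.0469) was lost in 13 of 18 alternatives. IRF7, which drives interferon alpha genes, was at 1.08 ± 0.69 and 1.7 ± 0.7 (edgeR adjusted p = 0.204 and 0.0506), and STAT2, the partner of IRF9 in ISGF3, was at 0.29 ± 0.31 and 0.29 ± 0.31 (edgeR adjusted p = 0.458 and 0.44). In culture IRF7 passed in 5 of 18 alternatives, DESeq2 among them (1.67, adjusted p = 0.0215), and was at 0.92 without culture 5 (edgeR adjusted p = 0.242).

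The ISG15 and PARP group gave 0 calls of 6 in either comparison, with a median log2 fold change of -0.12 in vesicle culture and 0.20 in culture. ISG15, a ubiquitin-like protein joined to other proteins, had 69, 109, 11.2, 11.5 and 58.8 CPM in vesicle cultures 1 to 5, 59.6, 38.4, 61.6, 24.5 and 249.6 CPM in cultures 1 to 5, and 123, 6.26, 24, 32.2 and 89.5 CPM in fresh tissues 1 to 5. Each group ran from low to high, the groups overlapped throughout, and culture 5 was the highest library. ISG15 was at -0.09 ± 0.8 in vesicle culture and 0.66 ± 0.8 in culture (edgeR adjusted p = 0.939 and 0.511). USP18, which removes ISG15 and blocks the interferon receptor, was at 0.74 and 0.92 in that order, and UBA7, the enzyme that activates ISG15, at -0.16 and 0.21. DTX3L and PARP9, which work as a ubiquitin ligase complex, were at -0.15 and -0.06, and at -0.59 and -0.54. PARP14 was at 0.09 and 0.19.

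**Figure D3:**
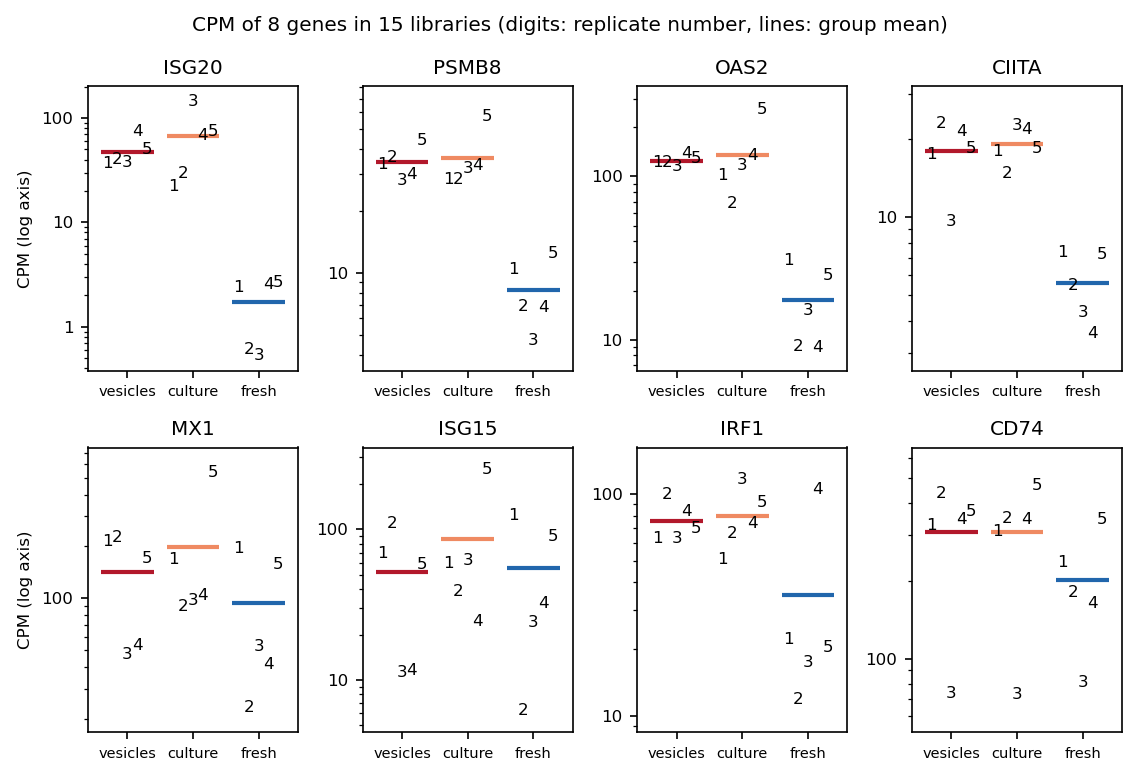
CPM on a log axis of 8 genes in vesicle culture, culture and fresh tissue; each digit is a library's replicate number and each line a group mean. ISG20, PSMB8, OAS2 and CIITA have every cultured library above fresh tissue, while MX1 and ISG15 overlap throughout, IRF1 has fresh tissue 4 among the cultures, and CD74 has replicate 3 lowest in all 3 groups.

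Both master regulators of MHC transcription were higher in both cultures. CIITA, the coactivator that class II genes need, had 17.5, 23, 9.63, 21.4 and 18.5 CPM in vesicle cultures 1 to 5, 18, 14.8, 22.7, 21.8 and 18.4 CPM in cultures 1 to 5, and 7.33, 5.46, 4.31, 3.58 and 7.22 CPM in fresh tissues 1 to 5. All cultured libraries lay above fresh tissue, with vesicle culture 3 the lowest of them. CIITA rose by 1.69 ± 0.25 in vesicle culture and 1.78 ± 0.25 in culture on the log2 scale (edgeR adjusted p = 4.77e-05 and 2.96e-05). NLRC5, its counterpart for class I genes, had 17.7, 35.5, 13.5, 13.5 and 28 CPM in vesicle cultures 1 to 5, 12.1, 14, 22.4, 13.2 and 34.2 CPM in cultures 1 to 5, and 5.79, 6.02, 3.21, 3.46 and 10.9 CPM in fresh tissues 1 to 5. Again no cultured library overlapped fresh tissue, and vesicle culture 2 and culture 5 were highest. NLRC5 rose by 1.88 ± 0.4 in vesicle culture and 1.7 ± 0.4 in culture (edgeR adjusted p = 0.00111 and 0.00219). The calls of CIITA and NLRC5 held in all 18 alternatives of each comparison.

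Class I presentation had 3 of 6 tested genes higher in each culture and 0 lower. PSMB8, an immunoproteasome subunit that replaces PSMB5, had 33.5, 36.2, 28, 29.8 and 44.1 CPM in vesicle cultures 1 to 5, 28.5, 28.4, 32.2, 33 and 57.6 CPM in cultures 1 to 5, and 10.4, 6.82, 4.67, 6.81 and 12.4 CPM in fresh tissues 1 to 5. Every cultured library was above every fresh one, with culture 5 highest. PSMB8 rose by 2.06 ± 0.27 in vesicle culture and 2.13 ± 0.27 in culture (edgeR adjusted p = 1.35e-05 and 1.01e-05). TAP2, a subunit of the peptide pump TAP, had 39.3, 47.1, 32.3, 38.2 and 36 CPM in vesicle cultures 1 to 5, 33.9, 36.4, 64.7, 39.5 and 52.7 CPM in cultures 1 to 5, and 24.3, 14.5, 20.3, 26.8 and 25.5 CPM in fresh tissues 1 to 5. No cultured library overlapped fresh tissue, and TAP2 was higher by 0.79 ± 0.2 in vesicle culture and 1.03 ± 0.2 in culture (edgeR adjusted p = 0.00383 and 0.000544). TAP1, its partner, had 59.3, 91, 44.1, 57.4 and 65.8 CPM in vesicle cultures 1 to 5, 53.6, 57, 71.3, 54.6 and 133 CPM in cultures 1 to 5, and 40.7, 22.6, 23.7, 32 and 53.3 CPM in fresh tissues 1 to 5. Vesicle culture 3 lay below fresh tissue 5 and all cultures lay above it, if only slightly for culture 1. TAP1 was higher by 0.88 ± 0.3 in vesicle culture and 1.1 ± 0.3 in culture (edgeR adjusted p = 0.0203 and 0.0056). The call of TAP1 in vesicle culture was lost without vesicle culture 2 (0.70, edgeR adjusted p = 0.0676), fresh tissue 2 (0.76, 0.0525) or fresh tissue 3 (0.77, 0.0532).

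The other immunoproteasome subunits were not called. PSMB9, which replaces PSMB6, was at 0.38 ± 0.51 in vesicle culture and 0.63 ± 0.51 in culture (edgeR adjusted p = 0.555 and 0.309). PSMB10, which replaces PSMB7, had 2.35, 1.13, 2.02, 2.36 and 2.14 CPM in vesicle cultures 1 to 5, 2.84, 1.69, 6.85, 1.96 and 2.42 CPM in cultures 1 to 5, and 4.21, 2.45, 3.92, 2.54 and 2.22 CPM in fresh tissues 1 to 5. Its counts were low in every group, culture 3 was highest and vesicle culture 2 lowest. PSMB10 was at -0.61 ± 0.38 in vesicle culture and 0.04 ± 0.38 in culture (edgeR adjusted p = 0.186 and 0.945). Whether PSMB8 differed from PSMB9 and PSMB10 was not tested. In the annotation TAP2, PSMB8, TAP1 and PSMB9 follow each other with no other protein-coding gene between them, so 3 of these 4 neighbours were called higher in each culture and PSMB9 was not.

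The matching constitutive subunits, which make up the proteasome of most cells, had smaller log2 fold changes than PSMB8, a difference that was not tested. PSMB5 was at 0.37 ± 0.13 in vesicle culture and 0.48 ± 0.13 in culture (edgeR adjusted p = 0.0253 and 0.00542). The first call was lost without vesicle culture 1, 2 or 3 or fresh tissue 1 or 5 (0.28 to 0.36). It was also lost by relative log expression scaling (0.31, edgeR adjusted p = 0.062) and upper-quartile scaling (0.26, edgeR adjusted p = 0.0968). PSMB6 was at 0.54 ± 0.11 and 0.6 ± 0.11 (edgeR adjusted p = 0.000949 and 0.000393), beside 0.38 and 0.63 for PSMB9. PSMB7 was called higher in culture, while PSMB10 was at 0.04 there. The PSMB7 call was lost in several alternatives. Among them were upper-quartile scaling (0.50, edgeR adjusted p = 0.0674), the replicate block (0.51, edgeR adjusted p = 0.0504) and the 2 groups only (0.60, edgeR adjusted p = 0.0816). So PSMB5 had the smaller change beside PSMB8 in both cultures, and PSMB7 the larger one beside PSMB10 in culture. PSMB6 was above PSMB9 in vesicle culture and just below PSMB9 in culture, each by less than the PSMB9 standard error of 0.51. Of 14 constitutive subunits tested, 6 were higher in vesicle culture and 5 in culture, with 0 lower. Over all genes tested, 27.4% were higher in vesicle culture and 28.7% in culture.

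B2M, the invariant light chain of class I, had 366, 671, 272, 323 and 504 CPM in vesicle cultures 1 to 5, 378, 415, 155, 405 and 839 CPM in cultures 1 to 5, and 268, 167, 189.5, 220.3 and 381 CPM in fresh tissues 1 to 5. Culture 3 was the lowest of all and culture 5 the highest, so the groups overlapped. B2M was at 0.8 ± 0.37 in vesicle culture and 0.84 ± 0.37 in culture (edgeR adjusted p = 0.0788 and 0.0655) and passed in vesicle culture with the block (0.79, edgeR adjusted p = 0.0233), and in culture without culture 3 (1.05, edgeR adjusted p = 0.0107) or fresh tissue 5 (1.05, edgeR adjusted p = 0.0335). CD74, the class II invariant chain, had 327, 435, 73.1, 347 and 371 CPM in vesicle cultures 1 to 5, 311, 350.3, 72.5, 344 and 469.5 CPM in cultures 1 to 5, and 236, 179.8, 81.1, 163 and 347 CPM in fresh tissues 1 to 5. The replicate 3 library was the lowest of each group, and the other cultured libraries lay above 3 of the other 4 fresh ones. CD74 was at 0.62 ± 0.49 in vesicle culture and 0.62 ± 0.49 in culture (edgeR adjusted p = 0.298 and 0.296). With the block CD74 passed in vesicle culture at 0.54 (edgeR adjusted p = 0.0361).

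The groups of CPM did not overlap for 10 of the 39 genes (25.6%) between vesicle culture and fresh tissue, all higher. Of all genes tested, 25.3% were higher without overlap. Between culture and fresh tissue this held for 9 genes (23.1%), again all higher, against 20.2% of all genes tested that were higher without overlap. Both shares were near those of all genes, and the difference was not tested. OAS2, ISG20, SAMHD1, CIITA, NLRC5, TAP2 and PSMB8 were in both counts. EIF2AK2, TLR3 and TRIM25 were in the count for vesicle culture, and IFIT2 and TAP1 in the count for culture.

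Vesicle culture and culture were compared in same-numbered pairs, which addresses the effect of the caput vesicles. None of the 39 genes was called (0%), as was none of the 18038 genes tested by edgeR or DESeq2, and limma-voom called 1 gene that is not among the 39. At an unadjusted p under 0.05 by edgeR there were 0 of the 39 and 268 genes in all (1.49%), or 853 without the third pair. The log2 fold changes of the 39 genes ran from -0.82 to 0.44 with standard errors of 0.13 to 0.60, the lowest edgeR p was 0.146, and every adjusted p was 0.953 or more. With 5 pairs, 4 residual degrees of freedom and adjustment over 18038 genes, a call needs a difference well above such errors. Vesicle effects larger than 1 standard error could therefore also go uncalled.

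The 6 genes with the smallest p were PSMB10, OASL, ISG15, RSAD2, IFI6 and IFIT3, all at log2 fold changes below 0. For OASL, ISG15 and RSAD2, whose values are given above, vesicle culture was higher in the first and second pairs and lower in the other 3. The log2 fold changes were -0.72 ± 0.49 for OASL, -0.82 ± 0.6 for ISG15 and -0.69 ± 0.5 for RSAD2 (edgeR adjusted p = 0.953 for each). IFI6, a mitochondrial and endoplasmic reticulum protein that limits flaviviruses, had 182, 289, 85.5, 127 and 94.2 CPM in vesicle cultures 1 to 5, 179, 125, 299.6, 191 and 339 CPM in cultures 1 to 5, and 276, 38.8, 118, 267 and 229 CPM in fresh tissues 1 to 5. IFIT3, the partner of IFIT2 in its complex, had 56.5, 61.5, 7.93, 7.95 and 62.3 CPM in vesicle cultures 1 to 5, 48.7, 29.5, 10.1, 21.1 and 255 CPM in cultures 1 to 5, and 18.3, 3.97, 5.02, 8.49 and 23.7 CPM in fresh tissues 1 to 5. IFI6 and IFIT3 showed the same order, higher with vesicles in the first and second pairs and lower in the rest, at -0.62 ± 0.46 and -0.51 ± 0.44. PSMB10 was lower with vesicles in 4 of 5 pairs, at -0.51 ± 0.31.

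The pairs went opposite ways across the list. With vesicles, 36 of 39 genes were higher in the first pair and 37 in the second, then 14 in the third, 10 in the fourth and 1 in the fifth. Of all genes tested, 48.9% to 52.3% were higher in each pair. The median difference in log2 CPM over the 39 genes was 0.21, 0.83, -0.37, -0.26 and -1.01 in pairs 1 to 5, while the median over all genes lay between 0 and 0.07. In the second pair 16 of the 39 were more than 2-fold higher with vesicles, as were 3.11% of all genes, led by ISG15 at 1.51, BST2 at 1.5 and IRF7 at 1.48 on the log2 scale. In the fifth pair 20 of the 39 were more than 2-fold lower with vesicles, as were 2.80% of all genes, led by RSAD2 at -2.39, OASL at -2.28 and IRF7 at -2.11. The third pair held both extremes, from BST2 at -2.55 to TLR3 at 3.21. Here the all-gene spread was also the widest, with an SD of 1.18 against 0.467 to 0.606 in the other pairs, and the third pair holds culture 3 with its low mitochondrial share. What moved the genes together within a pair was not tested.

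**Figure D4:**
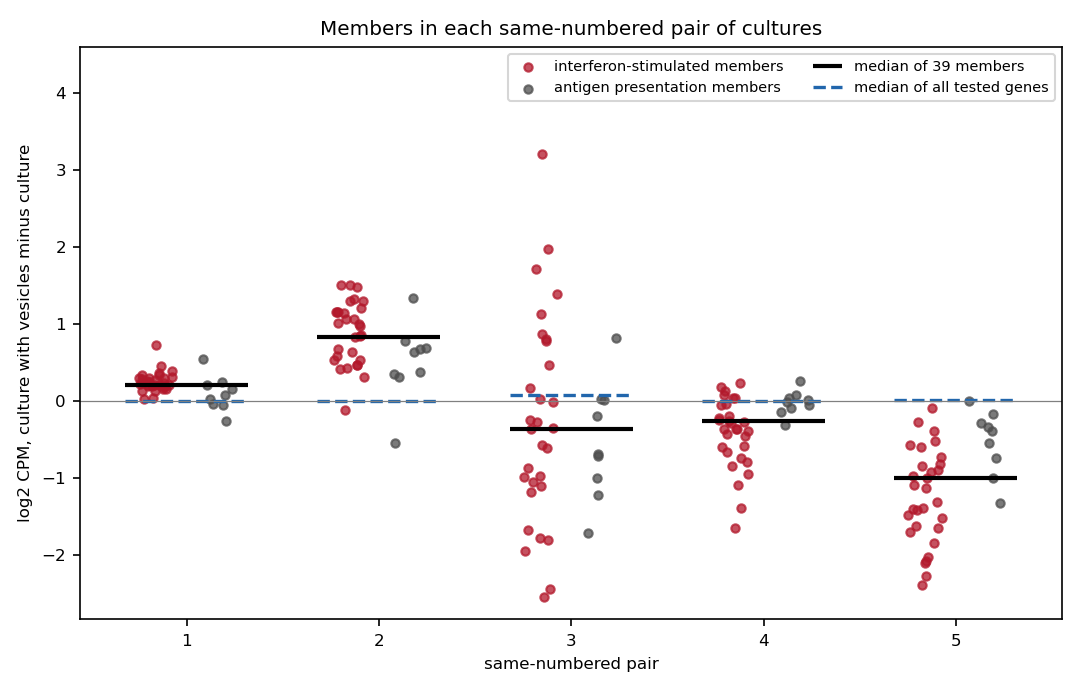
Difference in log2 CPM, vesicle culture minus culture, of the 39 genes in each same-numbered pair: red points are the 30 interferon-stimulated genes, grey points the 9 antigen presentation genes, black lines their joint median and dashed blue lines the median of all genes tested. The medians are 0.21, 0.83, -0.37, -0.26 and -1.01, above 0 in pairs 1 and 2 and below it in the rest.

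Each vesicle culture was also set against the fresh tissue of its number. The second pair stood apart, with 38 of 39 genes higher in vesicle culture and a median difference of 2.39 in log2 CPM. The other 4 pairs had 21 to 26 genes higher and medians of 0.29 to 0.49. Of all genes tested, 51.7% were higher in the second pair and 50% to 50.8% in the other pairs. Vesicle culture 2 was the highest of the vesicle cultures and fresh tissue 2 the lowest of the fresh ones.

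The spread of the 39 genes between libraries of a group was then set beside that of genes in general. The median SD of log2 CPM was 0.52 for them and 0.29 for all genes tested in vesicle culture, 0.93 and 0.54 in culture, and 0.80 and 0.29 in fresh tissue. Within vesicle culture, replicate 2 was the highest library for 26 of the 39 genes (27.1% of all genes) and replicate 3 the lowest for 26 (15.3% of all genes). Culture 5 was the highest culture for 34 of the 39 (16.8% of all genes). In fresh tissue, replicate 1 was highest for 23 (18.4% of all genes) and replicate 2 lowest for 28 (18.5% of all genes). The 39 genes took 0.142% to 0.350% of counts in vesicle culture, 0.179% to 0.579% in culture, with culture 5 at the top, and 0.0855% to 0.257% in fresh tissue, with fresh tissue 2 at the bottom.

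The interferon-stimulated and antigen presentation branches were then set apart, as the mean log2 CPM over 30 and 9 genes in each library. The interferon-stimulated mean ran from 4.47 to 5.83 in vesicle culture, 4.74 to 6.80 in culture and 3.15 to 5.14 in fresh tissue, so that every group overlapped the next. Fresh tissues 1 and 5, at 5.14 and 4.97, were above vesicle cultures 3 and 4. For antigen presentation the mean ran from 4.42 to 5.44 in vesicle culture, 4.89 to 5.78 in culture and 3.60 to 4.61 in fresh tissue. All 5 cultures lay above fresh tissue here, and of the vesicle cultures all but replicate 3 did. These means are a description, since the genes were chosen with results known.

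**Figure D5:**
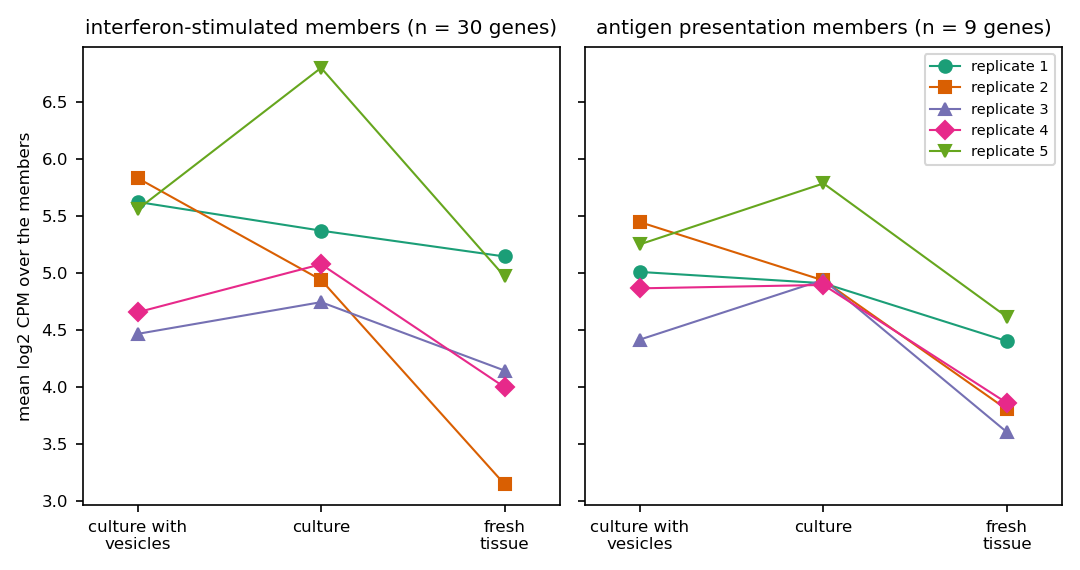
Mean log2 CPM over the 30 interferon-stimulated genes (left) and the 9 antigen presentation genes (right) in vesicle culture, culture and fresh tissue, with lines joining libraries of the same replicate number. Culture 5 is the highest point in both panels, at 6.80 and 5.78, and the lowest points are fresh tissue 2 on the left, at 3.15, and fresh tissue 3 on the right, at 3.60.

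Markers of immune and endothelial cells, which can express many of these genes, were read beside these levels. The 17 macrophage markers summed to 69.6 to 149.7 CPM in vesicle culture, 77.4 to 203 CPM in culture and 48.1 to 86.7 CPM in fresh tissue, with MARCO at a count of 0 in all 15 libraries. Of 15 tested, 4 were higher and 2 lower in vesicle culture, and 3 higher and 1 lower in culture, and the median log2 fold change was -0.2 in vesicle culture and 0.53 in culture. CD14 was higher, at 3.54 ± 0.4 and 3.61 ± 0.4, as was CD68 at 4.35 ± 0.54 and 4.3 ± 0.54. The chemokine receptor CX3CR1 was lower, at -3.1 ± 1.09 and -2.8 ± 1.07, and CSF1R, the receptor that macrophages need to survive, was at -1.16 ± 0.38, called lower, in vesicle culture and -0.73 ± 0.37, not called, in culture. The CX3CR1 call in vesicle culture was lost without vesicle culture 2, 3 or 4 or fresh tissue 1 (-2.82 to -2.76). The CX3CR1 call in culture was lost without culture 1, 2, 3 or 4 or fresh tissue 1, 2 or 5 (-2.93 to -2.48). Both were also lost with no filter on low counts (-3.03 and -2.75, edgeR adjusted p = 0.0568 and 0.0756), and the second by DESeq2 (-2.86, adjusted p = 0.0506). The 12 neutrophil markers summed to 559.8 to 1484 CPM in vesicle culture, 507 to 1624.5 CPM in culture and 11.4 to 18.1 CPM in fresh tissue. Of 8 tested, 5 were higher in vesicle culture and 6 in culture, with 2 lower in each. In both cultures most of the sum was S100A8 and S100A9, calcium-binding proteins that epithelium can also make. S100A8 averaged 501 ± 200.4 CPM in vesicle culture, 362 ± 215 CPM in culture and 0.0668 ± 0.102 CPM in fresh tissue (SD, n = 5 each). S100A9 averaged 365 ± 197 CPM in vesicle culture and 373 ± 242 CPM in culture (SD, n = 5 each) and was at a count of 0 in every fresh library. The integrin chain ITGAM was lower, at -2.72 ± 0.82 and -3.91 ± 0.89, and CSF3R, the receptor of the neutrophil growth factor, did not pass the filter, with 0, 2 and 15 counts in all over vesicle culture, culture and fresh tissue. The 12 endothelial markers summed to 468 to 1002 CPM in vesicle culture, 574 to 777 CPM in culture and 288 to 394 CPM in fresh tissue, and 8 of 12 were higher and 0 lower in each culture. The 12 dendritic cell markers found summed to 121 to 188 CPM in vesicle culture, 116 to 306 CPM in culture and 32.1 to 55.7 CPM in fresh tissue. In both cultures most of that sum was FSCN1, an actin bundler that other cells also make, with 127 ± 25.4 CPM in vesicle culture, 149.8 ± 70.4 CPM in culture and 5.8 ± 2.87 CPM in fresh tissue (SD, n = 5 each). The 16 lymphocyte markers summed to 7.87 to 15.7 CPM in vesicle culture, 7.89 to 16.6 CPM in culture and 23.3 to 55.5 CPM in fresh tissue. Culture 5, the highest for most of the 39 genes, had 126 CPM of macrophage, 986 CPM of neutrophil, 207 CPM of dendritic cell, 777 CPM of endothelial and 16.6 CPM of lymphocyte markers, the last 2 the highest among the cultures. The part of any cell type in the levels of the 39 genes was not tested.

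Upstream of these genes, the 4 interferon genes looked at had few counts. Of these, 3 did not pass the filter: IFNB1 had 7, 2 and 5 counts in all over vesicle culture, culture and fresh tissue, IFNG had 3, 0 and 15, and IFNK had 0 in every library. IFNW1, IFNL1, IFNL3 and the interferon alpha genes were not analysed here. IFNE, an interferon made by epithelium of the reproductive tract, averaged 0.424 ± 0.206 CPM in vesicle culture, 0.391 ± 0.103 CPM in culture and 0.99 ± 0.46 CPM in fresh tissue (SD, n = 5 each). IFNE was lower, at -1.22 ± 0.44 in vesicle culture and -1.33 ± 0.45 in culture on the log2 scale (edgeR adjusted p = 0.0306 and 0.02). Both calls were lost without fresh tissue 1 (-0.92 and -1.04, edgeR adjusted p = 0.103 and 0.0691). The call in vesicle culture was also lost with no filter on low counts and without vesicle culture 1, 2 or 3 (-1.21 to -1.01, edgeR adjusted p = 0.0555 to 0.0683).

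Of 9 receptors and kinases tested, 7 were higher and 1 lower in each culture. IFNAR2, a chain of the type I interferon receptor, averaged 115 ± 18.8 CPM in vesicle culture, 97.7 ± 21.4 CPM in culture and 12.3 ± 1.66 CPM in fresh tissue (SD, n = 5 each). No cultured library overlapped fresh tissue, and IFNAR2 was higher by 3.22 ± 0.17 and 2.98 ± 0.17 in the 2 cultures in that order (edgeR adjusted p = 4.71e-09 and 8.12e-09). Its partner IFNAR1 was at 2.19 ± 0.24 and 1.99 ± 0.24. The interferon gamma receptor chains IFNGR1, at 1.48 ± 0.19 and 1.41 ± 0.19, and IFNGR2, at 2.74 ± 0.21 and 2.58 ± 0.21, were higher too. IL10RB, shared by the receptors of interferon lambda and interleukin 10, was at 2.82 ± 0.19 and 2.7 ± 0.19, while IFNLR1, the specific lambda chain, was at 0.81 ± 0.35 and 0.61 ± 0.35 and not called. Of the kinases, JAK2 was at 1.98 ± 0.17 and 1.79 ± 0.17 and JAK1 at 0.7 ± 0.09 and 0.7 ± 0.09, both called higher. TYK2, the kinase bound to IFNAR1, fell, at -0.55 ± 0.16 and -0.51 ± 0.16 (edgeR adjusted p = 0.00992 and 0.0159).

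Among tested transcription factors of the pathway outside the list, 2 were higher in vesicle culture and 3 in culture, with 0 lower. ETV7, itself interferon-induced, was at 3.31 ± 0.32 and 3.35 ± 0.32, IRF8, which myeloid cells need, at 0.82 ± 0.28 and 1.15 ± 0.28, and all 4 values passed. IRF3, which starts interferon transcription, was at 0.46 ± 0.2 in vesicle culture, which did not pass, and 0.76 ± 0.2 in culture, which did. The IRF8 call in vesicle culture was lost without vesicle culture 2 or 3 (0.73 and 0.69). BATF2 at 0.42 and 0.68, IRF2 at 0.09 and -0.03 and IRF5 at -0.16 and 0.14 were not called in either culture.

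Nucleic acid sensing outside the list had 7 of 13 tested genes higher and 1 lower in each culture. STING1, the adaptor of DNA sensing, was at 2.14 ± 0.22 in vesicle culture and 2.05 ± 0.22 in culture (edgeR adjusted p = 1.26e-06 and 1.91e-06). CGAS, the DNA sensor upstream of it, was at 1.63 ± 0.39 and 2.16 ± 0.4, TLR9, a receptor for DNA, at 1.34 ± 0.23 and 1.55 ± 0.23, TRIM56 at 0.78 ± 0.19 and 1.03 ± 0.19, and TICAM1, the adaptor of TLR3, at 1.18 ± 0.26 and 1.33 ± 0.26. TLR7, an endosomal receptor for single-stranded RNA, averaged 1.23 ± 1.07 CPM in vesicle culture, 1.2 ± 1.26 CPM in culture and 22.6 ± 8.66 CPM in fresh tissue (SD, n = 5 each). No cultured library reached fresh tissue, and TLR7 was lower, at -4.22 ± 0.85 and -4.24 ± 0.85 (edgeR adjusted p = 0.000658 and 0.000627), or -5.08 in culture without culture 2.

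Of 33 other interferon-stimulated genes tested, 8 were higher and 3 lower in vesicle culture, and 12 higher and 2 lower in culture. Over all genes tested 27.4% were higher in vesicle culture and 28.7% in culture, so the 8 fell just under that share and the 12 lay above it, and neither was tested. WARS1, a tryptophanyl-tRNA synthetase that interferon gamma induces, was at 2.03 ± 0.21 in vesicle culture and 1.98 ± 0.2 in culture. HELZ2, a helicase, was at 2.62 ± 0.42 and 3.16 ± 0.43 (2.54 in culture by limma-voom), and ZNFX1, an RNA sensor on mitochondria, at 0.84 ± 0.16 and 0.91 ± 0.17. PML, which builds nuclear bodies, was lower at -1.01 ± 0.14 and -0.93 ± 0.14 (edgeR adjusted p = 2.56e-05 and 5.22e-05).

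Negative regulators of the signal had 4 of 9 higher and 1 lower in each culture. SOCS1, which blocks JAK kinases, was at 2.69 ± 0.36 in vesicle culture and 2.56 ± 0.36 in culture on the log2 scale. Its levels were low, at 2.94 ± 0.765 CPM in vesicle culture, 2.68 ± 0.898 CPM in culture and 0.455 ± 0.163 CPM in fresh tissue (SD, n = 5 each). PTPN11, the phosphatase SHP2, was at 1.4 ± 0.11 and 1.29 ± 0.11, and CISH at 1.17 ± 0.21 and 1.19 ± 0.21. PTPN6, the blood cell phosphatase SHP1, was lower, at -1.14 ± 0.16 and -1.14 ± 0.16 (edgeR adjusted p = 2.93e-05 and 2.88e-05).

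Class I loading genes outside the list split, with 3 of 10 tested higher and 4 lower in each culture. CD1D, which presents lipids to NKT cells, was at 2.03 ± 0.32 in vesicle culture and 2.23 ± 0.32 in culture (edgeR adjusted p = 8.53e-05 and 3.73e-05). The chaperones PDIA3 and CALR of the loading complex fell: PDIA3 was at -1.42 ± 0.12 and -1.43 ± 0.12, and CALR, calreticulin, at -1.93 ± 0.18 and -1.71 ± 0.18. PSME1, a part of the proteasome activator PA28, was lower at -1.14 ± 0.14 and -0.86 ± 0.14. These genes also serve protein folding and turnover in general. ERAP2, HLA-E and MR1 were not analysed here.

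The class II pathway outside CD74 also split, with 3 of 9 tested higher and 4 lower in vesicle culture, and 3 higher and 3 lower in culture. CTSB, a lysosomal protease, was at 1.64 ± 0.16 in vesicle culture and 1.77 ± 0.16 in culture, and RFXANK, a part of the complex that binds class II promoters, at 0.84 ± 0.13 and 0.93 ± 0.13. CTSS, the protease that trims CD74, was lower, at -1.0 ± 0.14 and -0.99 ± 0.14 (edgeR adjusted p = 3.21e-05 and 3.59e-05), and RFX5, the DNA-binding partner of RFXANK, at -0.42 ± 0.1 and -0.41 ± 0.1. The class II genes HLA-DRA, HLA-DRB1, HLA-DMA, HLA-DMB, HLA-DOA and HLA-DOB were not analysed here. In none of these lists was a gene called between vesicle culture and culture by edgeR.

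Sequence families limit some of these values, since no source says how reads that match several genes were counted. The OAS, IFIT, IFI44 and MX genes have close relatives, and IFIT2 and IFIT3, IFI44L and IFI44, and PARP9 and DTX3L are direct neighbours in the annotation. Of the 39 genes, 12 overlap another annotated gene.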

How the data were processed

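The labels put 15 polyA-selected stranded RNA-seq libraries (TruSeq Stranded mRNA kit, per the labels' protocols) in 3 groups of 5. The authors deposited whole-number read counts for 38995 genes in 1 table. The submitters' processing notes name StringTie 2.1.3b, Bowtie2 2.3.4.1, HISAT2 2.1.0 and Trimmomatic 0.38 without saying what each did. Genome build, annotation, counter and strand setting: not given in the sources used here. Gene identifiers were paired with symbols through a RefSeq table of assembly F.catus_Fca126_mat1.0, used for names and neighbours only, and all 38995 matched.

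The edgeR function filterByExpr (minimum count 10, minimum total 15) kept 18038 genes. After TMM scaling, edgeR 4.0.16 (R 4.3.3) fitted the counts with glmQLFit and tested them 2-sided with glmQLFTest. The 2 comparisons with fresh tissue came from 1 fit of all 15 libraries with group as the only term (12 residual degrees of freedom). Vesicle culture against culture was fitted on the 10 cultured libraries with the replicate number as a block (4 residual degrees of freedom). Calls were made at 0.05 after Benjamini-Hochberg adjustment over the 18038 genes. Standard errors are the size of the log2 fold change over the square root of F. CPM use TMM-scaled library sizes, and log2 CPM a prior count of 2. The fit was tested on simulated data.

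Over all genes, deviations from group means of same-numbered libraries correlated at 0.181 to 0.602 between the 2 cultures. Between vesicle culture and fresh tissue they correlated at 0.242 to 0.362. Every pair was over 0.1. These values did not decide the design: the plan set pairs for the comparison between the cultures and no block against fresh tissue. Over the listed genes alone, the correlations in pairs 1 to 5 were 0.65, -0.003, 0.22, 0.78 and 0.75 between the cultures. Between vesicle culture and fresh tissue they were 0.75, -0.57, 0.11, 0.53 and 0.56. For the listed genes, the second pair was therefore below 0.1 in both comparisons. Vesicle culture against fresh tissue was still fitted without the block, and its blocked values stand beside those they change. The alternatives were DESeq2 1.42.0, limma-voom (limma 3.58.1) with sample quality weights, other scalings and filters, the replicate block, 2 groups only, and each library or pair left out.

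Members and lists were chosen with earlier results of these data known. Values in every library are given for the 12 called genes with the smallest adjusted p in culture against fresh tissue and the 6 with the smallest p between the cultures, and up to 4 called genes per other list. MX1, BST2, TLR3, IRF1, B2M and CD74 were singled out after their values were seen. All other members are given by fold change.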

Additional observations from a re-analysis of the deposited data

Results flagged for a closer look

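In each group of 5 libraries, each of the 39 genes was checked for 1 library far from the other 4, with a gap of more than 0.71 of the group's range in log2 CPM (Dixon's criterion). Of 117 groups checked, 10 had one. Chance gives about 1 in 20 groups.

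In vesicle culture, PSMB10 was low in replicate 2, at 0.28 log2 CPM against 1.08 to 1.29 in the other 4, and CD74 was low in replicate 3, at 6.19 against 8.35 to 8.76. In culture, CD74 was low in replicate 3, at 6.18 against 8.28 to 8.88, and TLR3 was low in the same library, at 0.89 against 3.85 to 4.56. Culture 5 was high for DHX58, at 6.68 against 4.43 to 4.98, for STAT2, at 7.70 against 6.22 to 6.64, and for PSMB8, at 5.85 against 4.83 to 5.05. In fresh tissue, replicate 2 was low for IFI35, at 4.85 against 5.49 to 5.73, and for BST2, at 3.47 against 6.68 to 7.52. Fresh tissue 4 was high for IRF1, at 6.71 against 3.58 to 4.47.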

How the results depend on the processing

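Against fresh tissue, 11 of the 18 calls in culture (OAS2, IFIT2, ISG20, SAMHD1, TLR3, TRIM25, CIITA, NLRC5, TAP1, TAP2 and PSMB8) and 11 of the 13 in vesicle culture (the same list with EIF2AK2 in place of TAP1) held in all 18 alternatives of each. Leaving out 1 library gave 11 to 18 genes higher and 0 to 1 lower in culture, and 11 to 14 higher and 0 to 2 lower in vesicle culture. The lowest count in culture came without culture 5, and the 2 lower in vesicle culture, BST2 and IFI35, came without vesicle culture 2 or fresh tissue 2. Vesicle culture had the same 2 genes lower by DESeq2 and by upper-quartile scaling. It had 2 lower, IFI35 and PARP9, by limma-voom (PARP9 at -0.65, adjusted p = 0.0231) and with only the 2 groups compared (PARP9 at -0.60, edgeR adjusted p = 0.03), and 1, BST2, by relative log expression scaling and with a filter at 1 CPM in 5 libraries. Between the cultures, limma-voom called 1 gene of all 18038, and the 39 genes gave 0 calls in all 13 alternatives.

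The replicate block gave 20 higher in culture, adding IRF7, B2M and CD74 and losing IFIT5. It rests there on a shared number only: the correlation of deviations was 0.0326 to 0.344 and 4 of 5 libraries matched their own number best. In vesicle culture the block gave 19 higher, with the 6 added calls printed above, and changed no other call. Between the cultures, both the fit without the block and the block over all 15 libraries gave 0 calls. No direction of a called gene reversed. Of 702 values per comparison with fresh tissue, 41 lost and 13 gained the call in culture, and 15 lost and 30 gained it in vesicle culture; the cause was not tested. With 5 libraries a group and standard errors up to 1.02 in culture, changes in the most variable genes were not detectable unless large.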
